A study of Mus musculus with 45 samples.

Results

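A set of 10 genes of bone morphogenetic protein (BMP) signalling was followed through the conversion of mouse fibroblasts into muscle cells. They are the ligand genes Bmp2, Bmp4, Bmp6 and Bmp7, the receptor genes Bmpr1a and Bmpr1b, the intracellular inhibitor gene Smad6, and Grem1, Nog and Bmper, whose secreted products bind BMPs. These 10 genes were taken by name from the 35675 genes for which reads could be summed, and all 10 passed the filter on low counts that left 17325 genes for testing. Bmp7 entered because it had been seen at a higher level in sorted Pax7-positive than in bulk induced myogenic progenitor cells (iMPCs), so for that pair of groups levels are given without a test.

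Bulk RNA-seq libraries came from 15 groups of 3, all with the genotype Tg:Pax7-nGFP/C57BL6;DBA2, in which a nuclear GFP reports Pax7, the gene that marks muscle stem cells. Mouse embryonic fibroblasts (MEFs) with a doxycycline-inducible MyoD, the transcription factor that directs cells into the muscle lineage, were sampled before treatment and on days 2, 4, 6, 8 and 10 of doxycycline, given alone, which gives multinucleated myotubes, or combined with small molecules, F/R/C in the labels, which gives iMPCs. The 4 reference groups were bulk iMPCs kept in F/R/C medium after 13 days of doxycycline with F/R/C, which the series describes as established clones that no longer need doxycycline, iMPCs purified by cell sorting for the Pax7 reporter, untreated bulk primary myoblasts from skeletal muscle, and sorted Pax7-positive myoblasts. Numbered replicates are not stated to be separate embryos, cultures or clones, so p-values measure only the spread between these libraries, which may be technical.

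BMPs are secreted dimers that bring together type I receptors, such as those encoded by Bmpr1a and Bmpr1b, and type II receptors on the cell surface. The activated receptor phosphorylates the transcription factors Smad1, Smad5 and Smad9, which enter the nucleus with Smad4 and switch on Id genes and the inhibitory Smads, among others. Secreted antagonists such as noggin, the product of Nog, and gremlin, the product of Grem1, hold BMPs away from their receptors. In muscle, BMP signalling is known for keeping precursor cells dividing and holding back their terminal differentiation, and strong BMP signals can divert myoblasts towards bone.

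The libraries held between 15.6 and 36.3 M reads (median 22.1 M), and the 3 bulk iMPC libraries, at 33.2 M or more, were among the deepest. Values below are in CPM, read counts scaled to a common library size with TMM factors, and a level of 3 reads in a library was taken as the smallest that can be detected. The 6 sorted libraries were quantified with another fragment-length setting than the other 39 (an implied mean fragment of about 180.03 against 153 bases), and the effects of the sort and of the setting cannot be told apart. Myod1, the induced gene, averaged 3.55 ± 4.58 CPM in MEFs and 2625 ± 837 CPM after 2 days of doxycycline alone (SD, n = 3 each). Summed levels of 9 fibroblast markers ran from 10325 to 14291 CPM in MEFs, on day 10 from 2926 to 11079 CPM with MyoD alone and from 972 to 4542 CPM when F/R/C was added. Summed levels of 7 markers of differentiated muscle ran from 50.8 to 133 CPM in MEFs, from 14377 to 19272 CPM in bulk iMPCs and from 651 to 1206 CPM in sorted iMPCs. The 5 endothelial markers summed to at most 9.21 CPM in any library and the 5 macrophage and blood markers to at most 11.2 CPM.

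The members differed widely in abundance. On the length-corrected TPM scale, Grem1 had the highest mean over the 45 libraries at 54.1 TPM, followed by Bmpr1a at 48.3 TPM, and Grem1 alone ranged from 0.0404 to 311 TPM. Nog had a mean level of 9.16 TPM, and Bmp4, Bmper, Smad6 and Bmpr1b had mean levels between 3.39 and 4.81 TPM. The ligand genes Bmp2, Bmp6 and Bmp7 had mean levels of 1.68, 0.586 and 0.556 TPM, and 15 of 45 libraries held at most 3 reads of Bmp7. Bmpr1a showed the smallest spread on the CPM scale, between 84.8 and 196 CPM in all 45 libraries. When the 15 groups were ordered by mean CPM, the libraries of neighbouring groups overlapped in all 14 steps for Bmp4, Bmp7 and Grem1 and in 12 or 13 steps for every other member, so the order within most of each list is not resolved by the spread between libraries.

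**Figure D1:**
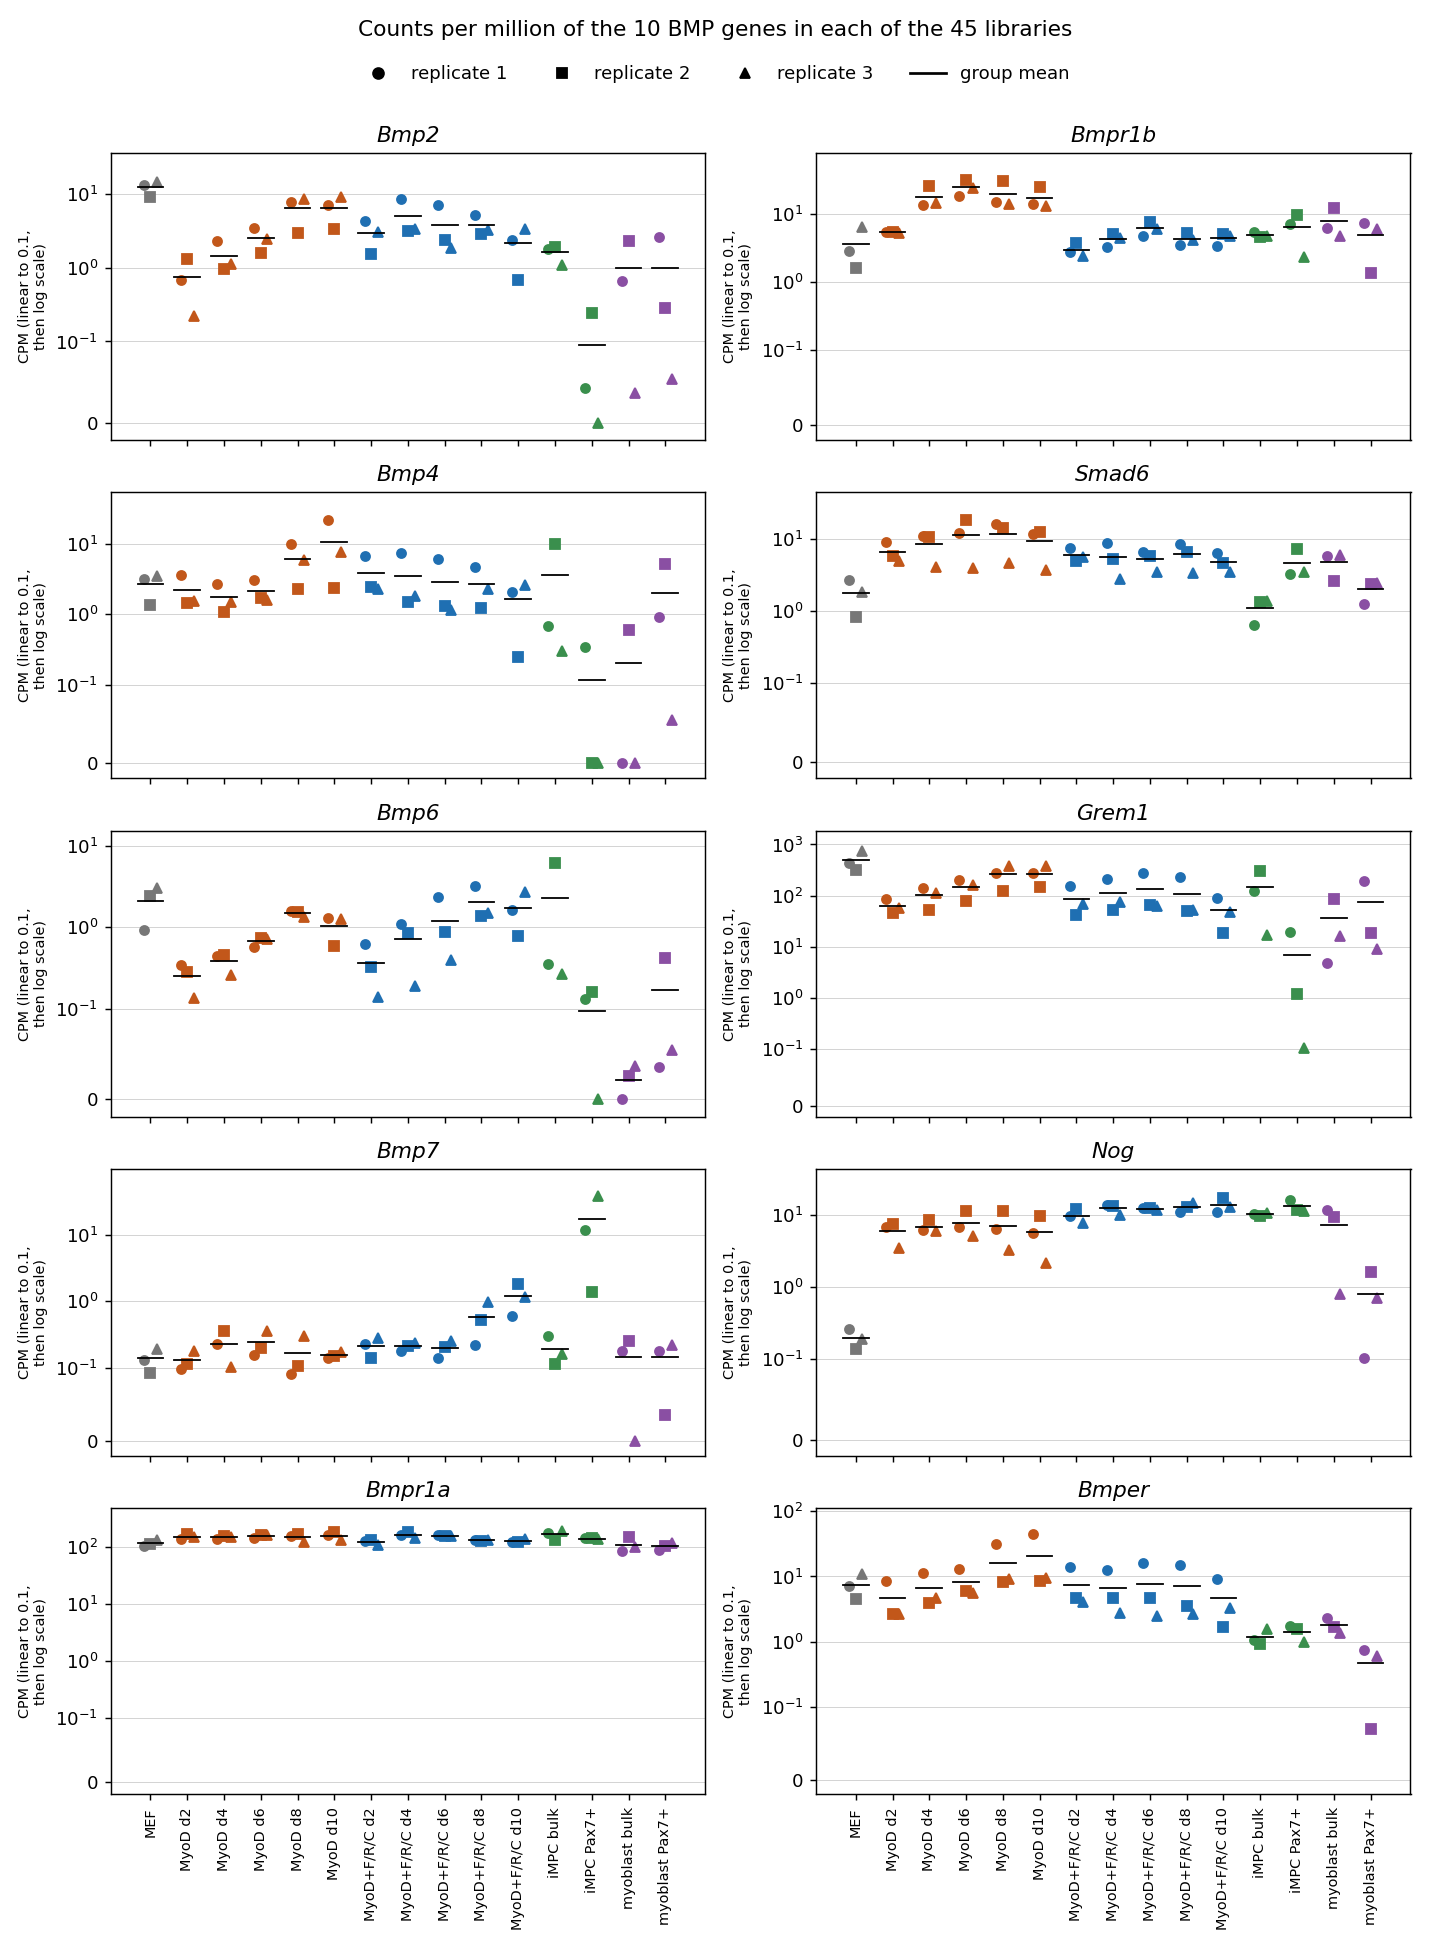
Levels of the 10 genes in each of the 45 libraries, in CPM on an axis that is linear up to 0.1 CPM and logarithmic above; symbols give the replicate number and bars the group means (n = 3). Bmpr1a stays between 84.8 and 196 CPM in every library, Bmpr1b is highest on days 4 to 10 of MyoD alone, and Bmp7 reaches 39.9 CPM in sorted iMPCs.

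MyoD binds the E-box, a motif of the letters CANNTG. The 250 bases in front of the RefSeq start sites (GRCm38.p6) are therefore shown for 3 members with a matched promoter entry and different courses. Bmpr1b rose with MyoD alone and was lower with F/R/C, Smad6 rose on both routes, and Grem1 fell from its high level in MEFs. Nog, with the largest rise over MEFs, had no such entry. In GENCODE M21 (GRCm38), Bmpr1b spans chr3:141837136-142169425, Smad6 chr9:63953076-64022059 and Grem1 chr2:113746164-113758646, all on the minus strand. The others that the results turn on are Nog (chr11:89300638-89302332, minus strand), Bmp2 (chr2:133552159-133562885, plus strand) and Bmp7 (chr2:172868012-172940321, minus strand). RefSeq promoter entries were matched for 7 of the 10 members; those for Bmp2, Bmp7 and Nog were not. The windows are chr3:141982265-141982514 for Bmpr1b, chr9:64022060-64022309 for Smad6 and chr2:113758649-113758898 for Grem1, all on the minus strand, written 5′ to 3′ in the direction of transcription, with E-boxes in capitals.
Bmpr1b: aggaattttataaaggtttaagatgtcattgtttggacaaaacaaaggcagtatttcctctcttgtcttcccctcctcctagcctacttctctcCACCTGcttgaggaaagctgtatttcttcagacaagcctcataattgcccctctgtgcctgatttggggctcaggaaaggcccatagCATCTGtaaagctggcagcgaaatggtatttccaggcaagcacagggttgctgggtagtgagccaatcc
Smad6: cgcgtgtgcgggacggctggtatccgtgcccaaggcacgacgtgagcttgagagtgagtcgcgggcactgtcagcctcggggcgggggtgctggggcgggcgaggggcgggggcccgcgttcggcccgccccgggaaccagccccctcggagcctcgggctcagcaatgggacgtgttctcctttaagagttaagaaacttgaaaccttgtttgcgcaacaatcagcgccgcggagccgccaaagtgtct
Grem1: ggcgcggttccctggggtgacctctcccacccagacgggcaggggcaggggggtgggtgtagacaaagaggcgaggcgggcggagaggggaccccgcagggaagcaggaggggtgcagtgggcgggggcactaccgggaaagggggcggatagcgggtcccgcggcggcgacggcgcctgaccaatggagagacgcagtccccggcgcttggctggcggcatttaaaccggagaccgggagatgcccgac
The Bmpr1b window, which ends at the start of Bmpr1b-201, the transcript with 75.1% of the gene's reads, held 2 E-boxes, 156 and 69 bases before the start. This start lies inside the annotated gene, which runs to 142169425 at its 5′ end. RefSeq lists 2 further Bmpr1b starts, also inside the gene, and the window of 1 of them held an E-box. The windows of Smad6 and Grem1 held none. Of the matched members that are not printed, Bmp4 had 3 E-boxes, Bmp6 had 2, and Bmpr1a and Bmper had none. On day 2 of MyoD alone Bmp6 was lower than in MEFs and Bmp4 was not called, so E-boxes were not particular to members that rose. An E-box, which reads alike on both strands, occurred in 66.2% of 32851 promoter windows of the same length. The motif GGCGCC, a GC-rich element through which Smads can bind DNA, occurred in the Grem1 window, where no E-box overlapped it. It also occurred in the Bmpr1a window, which is not printed, and in 9.59% of all windows. These matches describe the letters of these windows and were not tested against binding or expression.

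Among the ligand genes, Bmp2 and Bmp6 were lower after 2 days of MyoD alone than in MEFs, whereas Bmp4 and Bmp7 did not pass the test. Bmp2, an inducer of bone and cartilage formation, stood at 13.5, 9.24 and 14.5 CPM in the MEF libraries and at 0.681, 1.32 and 0.225 CPM on day 2. Every MEF library lay above every day 2 library, a difference of -4.08 on the log2 scale (SE 0.95, adjusted p = 0.0012 by edgeR's quasi-likelihood test with Benjamini-Hochberg adjustment, which gives all adjusted p-values below). A gene is called where the adjusted p is under 0.05 and the log2 fold change is 1 or more in size. Bmp6, a BMP also known for its part in iron balance, had 0.923, 2.42 and 3.04 CPM in MEFs and 0.341, 0.287 and 0.135 CPM on day 2, again without overlap (log2 fold change -3.04, SE 0.94, adjusted p = 0.011 by edgeR). In bulk samples such as these, fewer cells of one type and less RNA per cell cannot be told apart. Fibroblast markers, all 9 of which were above 3 reads in some MEF library, summed to 5114 to 7358 CPM on day 2 against 10325 to 14291 CPM in MEFs; their part in these differences was not tested.

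Later in the course of MyoD alone the Bmp2 level was nearer to that of MEFs. Its libraries held 2.30, 0.965 and 1.14 CPM on day 4, 7.83, 2.96 and 8.50 CPM on day 8, and 7.13, 3.42 and 9.24 CPM on day 10, when the difference from MEFs was -0.91 on the log2 scale (SE 0.82, adjusted p = 0.42 by edgeR). The group mean was thus higher at each later time point from day 2 to day 10. With F/R/C the course differed: the libraries held 4.29, 1.55 and 3.04 CPM on day 2 and 2.42, 0.682 and 3.39 CPM on day 10, with the highest group mean, 5.05 ± 3.10 CPM (SD, n = 3), on day 4. On day 10 of the F/R/C route Bmp2 was lower than in MEFs (log2 fold change -2.51, SE 0.87, adjusted p = 0.016 by edgeR, no overlap), a call that was lost without replicate 2 of the F/R/C group (adjusted p = 0.079).

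The F/R/C difference in Bmp2 changed sign along the time course. In each of the 3 pairs of libraries that carry the same number, F/R/C gave the higher value on days 2 and 4 and the lower value on days 8 and 10. The log2 fold changes were 2.01 (SE 0.91, adjusted p = 0.18 by edgeR) on day 2 and -1.60 (SE 0.85, adjusted p = 0.13) on day 10, neither of which passed the test. The change between them, tested as an interaction, was -3.61 (SE 1.24, adjusted p = 0.062 by edgeR) and also missed the threshold. No member was called for this change, against 6.01% of the 17325 tested genes. The count at an unadjusted p under 0.05 was 3, Bmp2, Bmp4 and Bmper, and DESeq2 called 1 member, Bmp2.

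Bmp4, a close relative of Bmp2, was variable between libraries and passed the test in none of the 4 comparisons with MEFs. MEF libraries held 3.21, 1.35 and 3.49 CPM, day 2 of MyoD alone 3.65, 1.43 and 1.53 CPM, and day 10 of MyoD alone 22.1, 2.33 and 7.60 CPM. The F/R/C libraries of day 10 held 2.07, 0.243 and 2.65 CPM. Libraries of these groups overlapped, and on day 10 the F/R/C difference was -2.67 on the log2 scale (SE 1.19, adjusted p = 0.072 by edgeR). An annotated antisense gene, Gm15222 (chr14:46387519-46389282, plus strand), lies inside Bmp4 (chr14:46383520-46390669, minus strand); the library kit keeps the strand, but the strand setting of the counting is not given in the sources used here, so reads of the pair may not be fully separated. Gm15222 itself averaged at most 0.449 CPM in any group.

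Mean levels of Bmp6 were higher late on both routes than on day 2, a difference that was not tested. With MyoD alone its libraries held 0.450, 0.457 and 0.259 CPM on day 4 and 1.60, 1.53 and 1.36 CPM on day 8. On the F/R/C route they held 0.626, 0.328 and 0.138 CPM on day 2 and 1.63, 0.779 and 2.75 CPM on day 10. Bmp6 was lower on day 2 with F/R/C than in MEFs (log2 fold change -2.52, SE 0.90, adjusted p = 0.028 by edgeR), and on day 10 the difference was -0.29 (SE 0.81, adjusted p = 0.78). The day 2 call with F/R/C was lost without replicate 2 or 3 of either group (adjusted p up to 0.12 by edgeR), and that of MyoD alone without its replicate 3 (adjusted p = 0.052). The libraries of the F/R/C route and of MyoD alone overlapped on each of the 5 days.

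Bmp7, a ligand best known from kidney and eye development, was barely detectable until late in the F/R/C route. All 3 MEF libraries held 2 or 3 reads, and with MyoD alone no library of any day exceeded 7 reads. With F/R/C the libraries held 0.217, 0.524 and 0.985 CPM on day 8 and 0.596, 1.85 and 1.17 CPM on day 10. The day 10 libraries, with 15, 38 and 33 reads, all lay above those of MyoD alone at 0.139, 0.149 and 0.174 CPM, and Bmp7 was higher with F/R/C on that day (log2 fold change 2.91, SE 0.80, adjusted p = 0.0045 by edgeR). The day 10 mean was at least 7.83-fold higher than the MEF floor of 3 reads per library, averaged over the MEF libraries. Pax7 itself moved in the same groups: on the F/R/C route its mean was 30.3 ± 0.897 CPM on day 8 and 63.6 ± 14.8 CPM on day 10, and at most 0.0931 CPM on any day of MyoD alone (SD, n = 3). Its part in the Bmp7 level was not tested.

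In the reference groups Bmp7 was high in the sorted iMPCs and low elsewhere. The sorted iMPC libraries held 11.9, 1.37 and 39.9 CPM, unequal among themselves, and the bulk iMPC libraries held 0.301, 0.113 and 0.161 CPM. Bulk myoblasts held 0.179, 0.250 and 0 CPM and sorted Pax7-positive myoblasts 0.177, 0.0353 and 0.217 CPM. Even the lowest sorted iMPC library lay above every library of these other 3 groups, and it lay within the range of day 10 with F/R/C. Because Bmp7 was picked for its level in sorted iMPCs, no test is given for it in comparisons that use the sorted or bulk iMPC libraries. Sorted iMPCs also had the highest summed level of 5 proliferation markers, 1577 to 1928 CPM against 484 to 1114 CPM in bulk iMPCs; its part in the Bmp7 level was not tested.

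The 2 receptor genes differed in how far they varied. Bmpr1a, which encodes a widely expressed type I receptor, stayed in a narrow range: group means ran from 105 ± 15.8 CPM in sorted Pax7-positive myoblasts to 170 ± 33.4 CPM in bulk iMPCs (SD, n = 3), and no log2 fold change in the 15 tested comparisons exceeded 0.60. That largest difference, between bulk iMPCs at 181, 132 and 196 CPM and bulk myoblasts at 84.8, 151 and 99.2 CPM, had an SE of 0.16 and an adjusted p of 0.0045 by edgeR, and stayed under the fold threshold.

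Bmpr1b, which encodes a type I receptor best known from cartilage and the ovary, rose with MyoD alone and was lower with F/R/C. MEF libraries held 2.90, 1.63 and 6.40 CPM. With MyoD alone the libraries held 5.55, 5.56 and 5.30 CPM on day 2, 13.8, 26.0 and 14.8 CPM on day 4, 18.7, 32.2 and 24.2 CPM on day 6, and 14.3, 25.2 and 13.3 CPM on day 10. From day 4 on, every library of MyoD alone lay above every MEF library, and day 10 differed from MEFs by 2.28 on the log2 scale (SE 0.50, adjusted p = 0.00079 by edgeR). With F/R/C the libraries held 2.82, 3.75 and 2.44 CPM on day 2, 3.34, 5.16 and 4.43 CPM on day 4, 4.82, 7.72 and 6.08 CPM on day 6, and 3.46, 5.21 and 4.84 CPM on day 10. These stayed near the MEF range, and the difference of day 10 with F/R/C from MEFs was 0.32 (SE 0.49, adjusted p = 0.61 by edgeR).

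In the F/R/C comparison averaged over days 2 to 10, Bmpr1b was called (log2 fold change -1.83, SE 0.22, adjusted p = 1.5e-08 by edgeR), and Bmp7 lay just under the fold threshold (0.99, SE 0.39, adjusted p = 0.026). The count of 1 member held in 12 of 39 alternatives, and Bmp7 stayed uncalled in 15 of 39. The reported count is 1 of 10 members, against 22.1% of all tested genes, so the members as a group were not called more often than genes at large; the median log2 fold change was -0.22 over the members and -0.03 over all genes. For Bmpr1b, the libraries of the routes did not overlap on any of the 5 days, and F/R/C gave the lower value in each of the 15 pairs with a shared number. The same replicate numbers recur on each day, so such pairs, here and for other members, are not 15 independent comparisons. The model behind the averaged SE and p took all libraries as independent, whereas replicate 2 held the most Bmpr1b in all 10 time-course groups. By day, the log2 difference was -0.86 (SE 0.49, adjusted p = 0.31 by edgeR) on day 2, -2.08 (SE 0.49, adjusted p = 0.0024) on day 4, -2.01 on day 6, -2.22 on day 8 and -1.97 (SE 0.49, adjusted p = 0.002) on day 10. Over the 39 alternatives run, left-out libraries included, the average stayed between -1.92 and -1.69 and past the threshold. Bmpr1b-201 carried 62.7% of the gene's reads on day 2 and 75.1% on day 10 of MyoD alone, and 45.02% and 74.0% on the same days of the F/R/C route.

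Smad6, an inhibitory Smad that binds activated type I BMP receptors and is itself a known BMP target, was higher than in MEFs on both routes. MEF libraries held 2.68, 0.836 and 1.84 CPM, day 2 of MyoD alone 9.24, 5.85 and 4.94 CPM, and day 2 with F/R/C 7.55, 5.06 and 5.71 CPM. Neither day 2 group overlapped MEFs. The log2 fold changes were 1.90 (SE 0.58, adjusted p = 0.011 by edgeR) with MyoD alone and 1.77 (SE 0.58, adjusted p = 0.018) with F/R/C, and on day 10 they were 2.39 (SE 0.59, adjusted p = 0.0025) and 1.43 (SE 0.58, adjusted p = 0.036). Both F/R/C calls and the day 2 call of MyoD alone were lost when single libraries were left out, among them replicate 2 of the MEFs, without which the adjusted p-values by edgeR were 0.099, 0.15 and 0.070.

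Between the routes Smad6 was lower with F/R/C in 14 of 15 same-numbered pairs, but the libraries overlapped on each day. The averaged log2 difference, -0.75 (SE 0.25, adjusted p = 0.0091 by edgeR), lay under the fold threshold. Replicate 3 was the lowest of its group in 9 of the 10 time-course groups: on day 8 of MyoD alone the libraries held 16.5, 14.3 and 4.73 CPM. Bulk iMPCs had the lowest mean of all groups, with libraries at 0.630, 1.32 and 1.40 CPM, below every library of day 10 with F/R/C at 6.44, 4.63 and 3.46 CPM and of bulk myoblasts at 5.88, 2.60 and 6.08 CPM. Smad6 was lower in bulk iMPCs than in either group, by the same amount, -2.11 on the log2 scale (SE 0.58 each, adjusted p = 0.0094 against day 10 with F/R/C and 0.0056 against myoblasts by edgeR). Without replicate 1 of the iMPCs the first of these was -1.84 (adjusted p = 0.055).

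Nog was called higher than in MEFs on both routes, and neither Grem1 nor Bmper was. Noggin binds BMP2, BMP4 and BMP7 and is itself switched on by BMP signals in many tissues. MEF libraries held 6, 3 and 3 reads of Nog, or 0.264, 0.139 and 0.190 CPM. After 2 days of MyoD alone they held 6.91, 7.63 and 3.51 CPM, and with F/R/C 9.65, 12.1 and 7.82 CPM. Every library of the time course, the lowest at 2.16 CPM, lay above the MEF range. The log2 fold changes from MEFs were 4.88 (SE 0.76, adjusted p = 7.9e-06 by edgeR) and 5.59 (SE 0.77, adjusted p = 1.3e-06) on day 2, and 4.82 (SE 0.76, adjusted p = 1e-05) and 6.07 (SE 0.78, adjusted p = 1.7e-07) on day 10.

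Nog was higher with F/R/C than with MyoD alone in all 15 same-numbered pairs, and the libraries did not overlap on 4 of 5 days. On day 10 the libraries held 11.2, 17.3 and 12.9 CPM with F/R/C and 5.60, 9.66 and 2.16 CPM without. The averaged log2 difference was 0.86 (SE 0.26, adjusted p = 0.0047 by edgeR), which is under the fold threshold, so Nog was not called. The level of Nog in bulk iMPCs was even between libraries, at 10.3, 9.84 and 10.6 CPM.

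Grem1, whose product gremlin binds BMP2, BMP4 and BMP7, was among the abundant transcripts of MEFs, at 205 ± 96.2 TPM (SD, n = 3), and fell on day 2 of MyoD alone. MEF libraries held 431, 311 and 749 CPM and day 2 libraries 85.6, 46.3 and 56.9 CPM, without overlap (log2 fold change -2.98, SE 1.16, adjusted p = 0.042 by edgeR). With MyoD alone the group mean was higher at each later day, up to 278, 147 and 375 CPM on day 10, which overlapped MEFs (log2 fold change -0.90, SE 1.08, adjusted p = 0.55). With F/R/C the libraries held 88.6, 18.6 and 46.8 CPM on day 10, all below those of MEFs (log2 fold change -3.27, SE 1.17, adjusted p = 0.019) and of MyoD alone on that day (-2.37, SE 1.13, adjusted p = 0.091 by edgeR, not called). The day 2 call was lost without low-count filtering (adjusted p = 0.059 by edgeR) and without 5 of the 6 libraries in turn (adjusted p up to 0.13); that of day 10 was lost without 3 of 6 (up to 0.082).

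Bmper, whose product can both block and promote BMP action, was not called against MEFs on any route. Its libraries held 7.03, 4.55 and 10.8 CPM in MEFs, and, on day 10, 44.7, 8.47 and 9.55 CPM for MyoD alone and 9.30, 1.70 and 3.28 CPM for the F/R/C route. Libraries of the routes overlapped on each day. On day 10 the test called Bmper lower with F/R/C (log2 fold change -2.13, SE 0.81, adjusted p = 0.035 by edgeR), but without replicate 1 of MyoD alone the value was -0.92 (adjusted p = 0.41), and the call was also lost without replicate 2 or replicate 3 of the F/R/C group (adjusted p = 0.15 and 0.11).

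**Figure D2:**
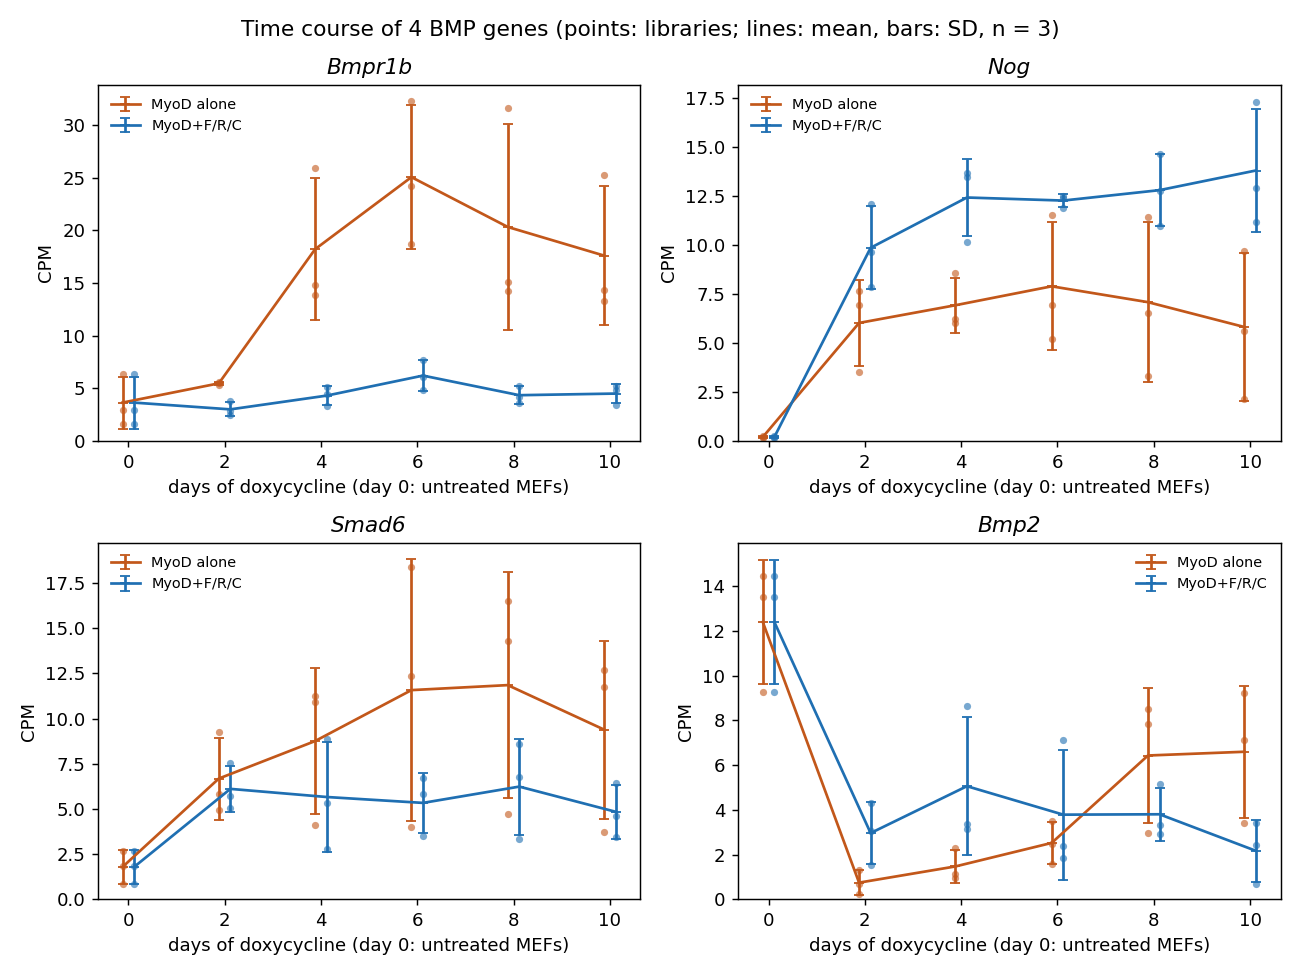
Levels of Bmpr1b, Nog, Smad6 and Bmp2 in CPM against days of doxycycline, with untreated MEFs at day 0, for MyoD alone and MyoD with F/R/C; points are libraries, lines group means and bars SD (n = 3). The routes do not overlap on any day for Bmpr1b, Nog is higher with F/R/C in every same-numbered pair, and the Bmp2 means cross between days 6 and 8.

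Calls over the members are read against those over all tested genes. Against MEFs, 5 of 10 members were called on day 2 of MyoD alone (22.4% of all tested genes), 3 on day 10 of MyoD alone (18.9%), and, on the F/R/C route, 3 on day 2 (20.4%) and 5 on day 10 (34.8%). Smad6 and Nog were the 2 members called higher in all 4, which share the same MEF libraries. Between the routes, 0 members were called on day 2 (4.93% of all tested genes), 1 on day 4 (13.2%), 1 on day 6 (15.4%), 1 on day 8 (18.7%) and 3 on day 10 (23.3%). On day 2 the only member with an unadjusted p under 0.05 in edgeR's quasi-likelihood test was Bmp2, and DESeq2 called 0 members as well.

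**Figure D3:**
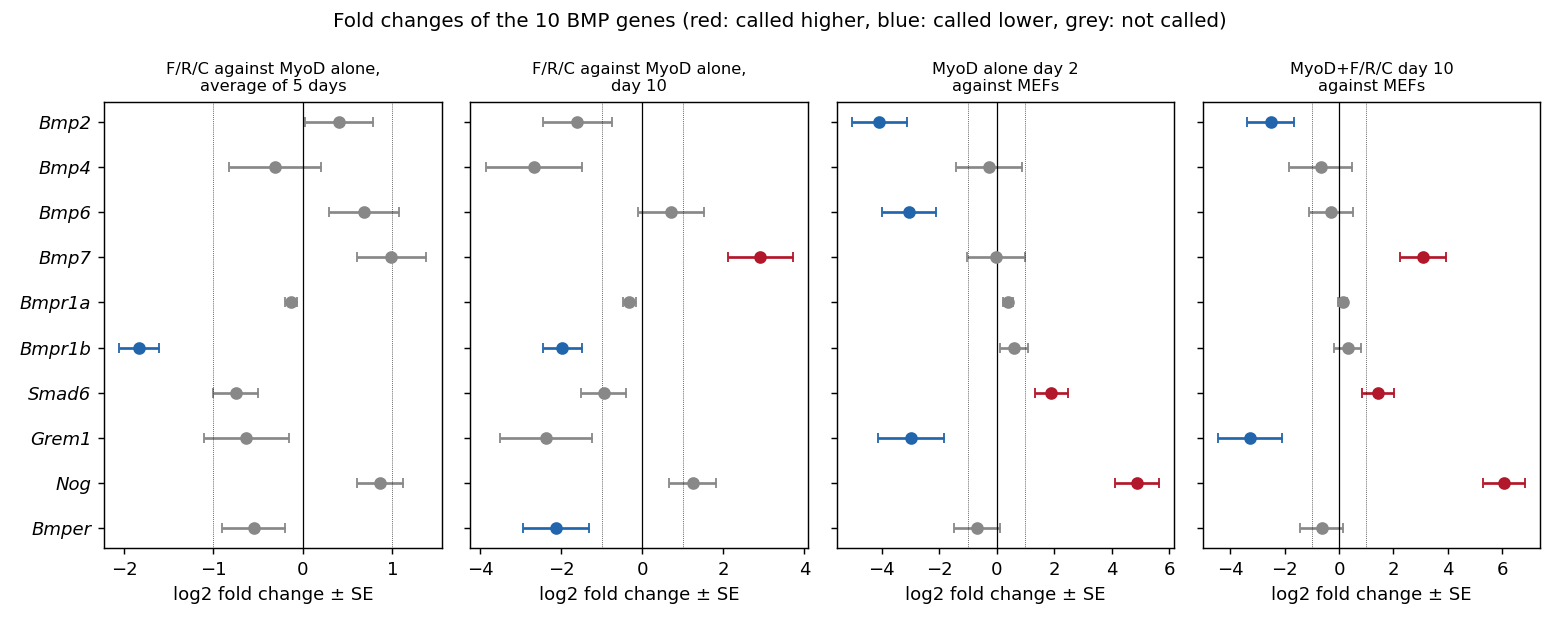
Log2 fold changes of the 10 genes with their SE in 4 comparisons, in edgeR's fit of all 45 libraries; red and blue mark genes called higher and lower, grey genes not called, and dotted lines a log2 fold change of 1 in size. Against MEFs, Nog reaches 6.07 on day 10 of the F/R/C route, and Bmpr1b is the only coloured gene in the average over days.

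Levels of several members followed the replicate number across both routes. Replicate 1 held the most Bmper in all 10 time-course groups and the most Bmp4 in 9, while replicate 2 held the most Bmpr1b in all 10 and the least Grem1 in 9. Replicate 3 held the most Bmp7 in 8 groups. Outside days 8 and 10 with F/R/C, no time-course library exceeded 7 reads of Bmp7, near the floor of 3 reads, so that order is not resolved. On day 10 of MyoD alone, replicate 2 also had the lowest summed fibroblast markers, 2926 CPM against 11079 and 9049 CPM in replicates 1 and 3, and the highest summed markers of differentiated muscle, 24960 CPM against 11435 and 6686 CPM. That library had 25.2 CPM of Bmpr1b and 9.66 CPM of Nog, the highest of its group, and 147 CPM of Grem1 and 2.33 CPM of Bmp4, the lowest. The part of these marker levels in the member levels was not tested.

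**Figure D4:**
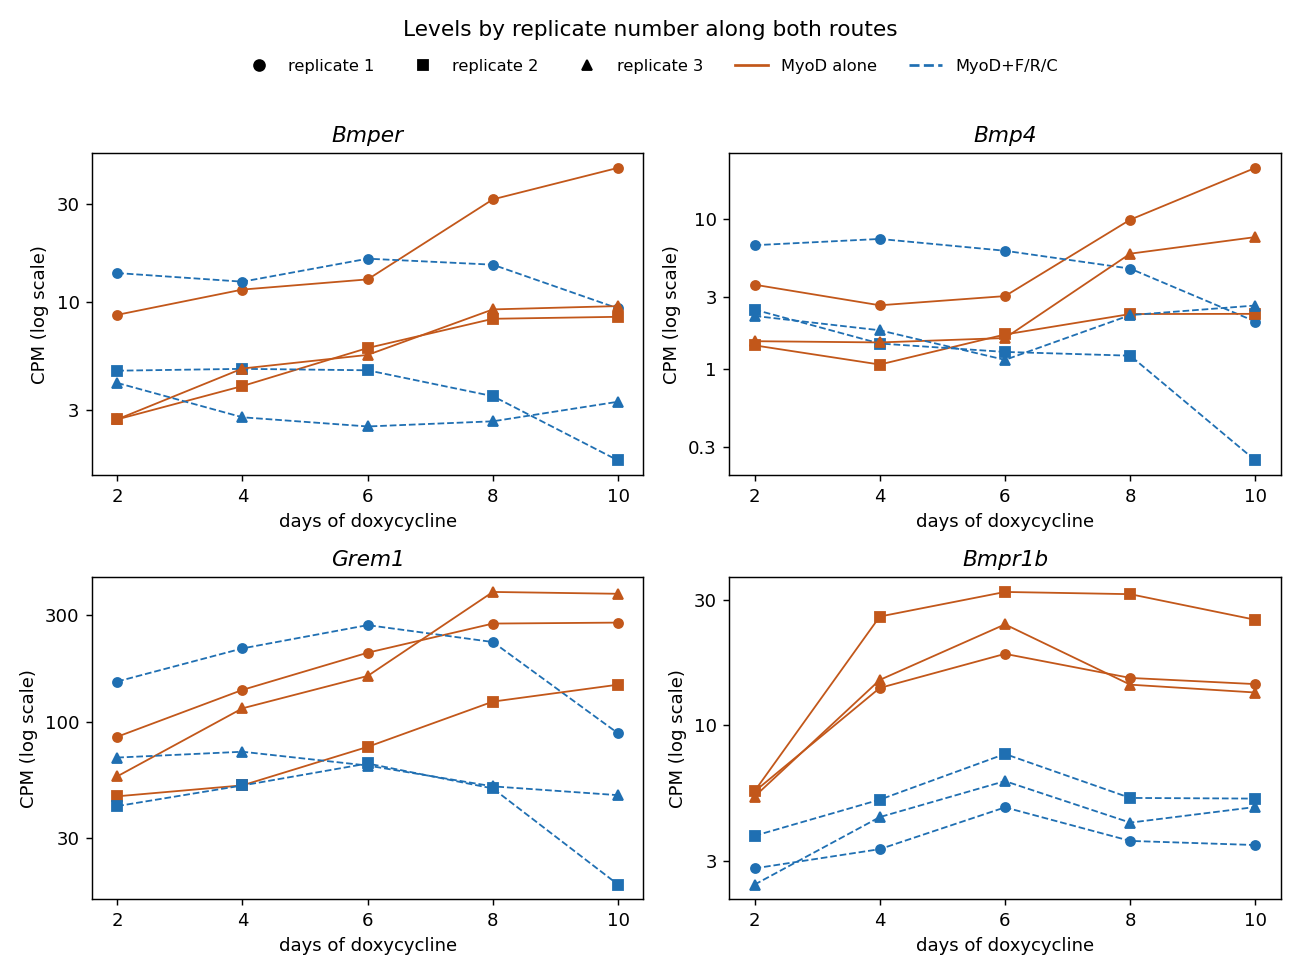
Levels of Bmper, Bmp4, Grem1 and Bmpr1b in CPM on a log axis against days of doxycycline, 1 line for each replicate number and route. Replicate 1 is highest for Bmper and replicate 2 for Bmpr1b at every day on both routes, and for Bmpr1b the routes stay apart within each replicate number.

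The reference groups were compared with each other and with day 10 of the F/R/C route. Against bulk myoblasts, 3 of 10 members were called in bulk iMPCs (19.6% of all tested genes): Smad6 lower, as above, and Bmp4 and Bmp6 higher. For the ligand genes 1 library weighed heavily. Bulk iMPC replicates held 0.684, 9.92 and 0.296 CPM of Bmp4 and 0.356, 6.23 and 0.269 CPM of Bmp6, while myoblasts held 0, 0.601 and 0 CPM of Bmp4 and 0, 0.0250 and 0.0364 CPM of Bmp6. Replicate 2 stood apart in both genes and also had 308 CPM of Grem1, against 122 and 17.1 CPM in the others. Its fibroblast markers summed to 3692 CPM, against 2052 CPM in both other libraries; their part was not tested. Without that library the log2 fold change of Bmp4 was 1.09 (adjusted p = 0.57 by edgeR), against 3.97 (SE 1.33, adjusted p = 0.021) with it, and the call was also lost without myoblast replicate 1 or 3 (adjusted p = 0.082 and 0.086). The Bmp6 mean in bulk iMPCs was at least 21.5-fold higher than the myoblast floor of 3 reads per library, averaged over the group, and its adjusted p was 0.00013 by edgeR. A fit of these 2 groups alone called 0 of the 3, with adjusted p-values by edgeR of 0.21 for Bmp4, 0.072 for Bmp6 and 0.059 for Smad6.

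Bulk iMPCs differed from day 10 with F/R/C in Smad6 alone among the 9 members other than Bmp7; 9.57% of all tested genes were called in that comparison. Grem1 and Bmp2 in bulk iMPCs overlapped day 10 with F/R/C, and Bmper, at 1.07, 0.930 and 1.59 CPM, lay wholly below it without passing the test (log2 fold change -1.99, SE 0.83, adjusted p = 0.085 by edgeR).

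Sorted Pax7-positive iMPCs were compared with sorted Pax7-positive myoblasts, which share the sort and the quantification setting. Leaving Bmp7 aside, 4 of the other 9 members were called, against 30% of all tested genes. Nog was higher in the sorted iMPCs, with libraries at 16.4, 11.7 and 11.5 CPM against 0.106, 1.62 and 0.707 CPM and no overlap (log2 fold change 4.01, SE 0.67, adjusted p = 1.1e-05 by edgeR). Bmp2, Bmp4 and Grem1 were called lower, with overlapping libraries. Sorted iMPCs held 19.1, 1.17 and 0.103 CPM of Grem1 and sorted myoblasts 196, 18.3 and 8.91 CPM, and without replicate 1 of the sorted myoblasts the log2 fold change moved from -3.45 (SE 1.20, adjusted p = 0.018) to -1.0 (adjusted p = 0.50 by edgeR). The same library decided Bmp2 (-3.26, SE 1.11, adjusted p = 0.016, and -0.81, adjusted p = 0.62, without it), and replicate 2 of the sorted myoblasts decided Bmp4 (-4.06, SE 1.47, adjusted p = 0.023, and -2.07, adjusted p = 0.29, without it). A fit of these 2 groups alone kept the call of Nog and lost those of Bmp2, Bmp4 and Grem1 (adjusted p = 0.15, 0.13 and 0.18 by edgeR).

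Sorted and bulk myoblasts differed in 1 of 10 members, Nog, against 6.23% of all tested genes. Bulk myoblasts held 11.8, 9.34 and 0.801 CPM, and the lowest of these overlapped the sorted myoblasts (log2 fold change -3.15, SE 0.65, adjusted p = 0.0018 by edgeR, and 0.48 in a fit of the 2 groups alone). The bulk myoblast library with 0.801 CPM of Nog, replicate 3, also had the lowest summed markers of differentiated muscle in its group, 890 CPM against 25695 and 12702 CPM; their part in the Nog level was not tested.

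Beside bulk iMPCs, and as a description only, the sorted iMPCs held less of Bmp2, Bmp4, Bmp6 and Grem1 and more of Bmp7 and Smad6 by the fold used here. Of all tested genes, 30.3% met both this fold and the limit on adjusted p, a stricter rule than the fold alone used here for the members. Bmp2 stood at 0.0433, 0.242 and 0 CPM in sorted and 1.81, 1.94 and 1.10 CPM in bulk iMPCs, and Smad6 at 3.34, 7.35 and 3.51 CPM in sorted and 0.630, 1.32 and 1.40 CPM in bulk iMPCs. Both genes were without overlap, as was Bmp6, whereas Bmp4 and Grem1 overlapped. The bulk means of Bmp4 and Bmp6 rest on replicate 2, at 9.92 and 6.23 CPM against at most 0.684 and 0.356 CPM in the other bulk libraries. Fibroblast markers summed to 539 to 1371 CPM in sorted and 2052 to 3692 CPM in bulk iMPCs; their part was not tested.

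Of 57 other genes of the pathway, 54 passed the filter, and in the F/R/C comparison averaged over days 14 were higher, 17 lower and 23 not called, against 22.1% of all tested genes called in either direction; the list counts that follow for this comparison are read against the same share. Ligand genes went both ways. Gdf5 was higher (48.6 against 4.51 CPM, log2 fold change 3.23, SE 0.33, adjusted p = 1.1e-09 by edgeR), as were Gdf7, Gdf10 and Bmp3, while Gdf6 (-2.08, SE 0.32, adjusted p = 1.3e-06) and Bmp8a (-1.19) were lower. Levels of Gdf10, Gdf7 and Bmp3 were near the floor, with at most 3 reads in 20, 19 and 14 of the 45 libraries. Gdf5 and Gdf6 encode growth factors that signal through BMP receptors in joints, and Gdf5 is known to bind the product of Bmpr1b.

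Among 10 receptors and co-receptors, 2 were higher and 4 lower. The type II receptor gene Bmpr2 was lower (101 against 238 CPM, log2 fold change -1.21, SE 0.10, adjusted p = 5.5e-12 by edgeR), together with the type I receptor genes Acvr1 (-1.34, SE 0.07) and Acvrl1 (-2.71, SE 0.31) and the co-receptor gene Eng (-1.07, SE 0.41). The co-receptor genes Rgma (2.75, SE 0.27) and Tgfbr3 (1.57, SE 0.34) were higher.

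Of 7 intracellular genes only Smad7, the other inhibitory Smad, was called, and it was lower (14.9 against 79.4 CPM, log2 fold change -2.48, SE 0.23, adjusted p = 5.5e-11 by edgeR). Of 17 tested extracellular modulators 5 were higher and 7 lower. The lower ones included Tll1 (-3.69, SE 0.29), a protease gene of the family that cleaves chordin, and the antagonist genes Sost (-2.40, SE 0.55) and Fstl3 (-2.28, SE 0.20), as well as Bmp1 (-1.59, SE 0.19), another such protease gene. The higher ones included Tll2 (3.76, SE 0.31), Vwc2, Kcp and Chrdl1. Chrdl1 had at most 3 reads in 22 of the 45 libraries, and Vwc2 in 9.

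The 12 genes known to respond to BMP, several of which other pathways also control, divided evenly with F/R/C: Hey1 (3.11, SE 0.25), Id4 (2.33, SE 0.23) and Id2 (1.08, SE 0.19) were higher, Sp7 (-3.42, SE 0.56), Msx2 (-1.37, SE 0.30) and Dlx3 (-1.01, SE 0.38) were lower, and 6 were not called. On day 2 of MyoD alone against MEFs, 6 of these 12 were higher and 0 lower (22.4% of all tested genes were called in either direction). Among them were Id1 (121 ± 3.98 against 31.3 ± 12.7 CPM, SD, n = 3, log2 fold change 1.96, adjusted p = 3.7e-05 by edgeR) and Hey1 (5.16, adjusted p = 3e-07). Day 2 with F/R/C against the same MEF libraries gave 7 of the 12 higher and 0 lower (20.4% of all tested genes). In bulk iMPCs against bulk myoblasts 8 of the 12 were lower and 2 higher (19.6% of all tested genes), the lower ones including Id1 (15.6 ± 2.84 against 81.1 ± 38.7 CPM, SD, n = 3, log2 fold change -2.38, adjusted p = 5.4e-06 by edgeR) and Id3 (-2.07, adjusted p = 4.5e-05). The sorted cells differed: in sorted iMPCs against sorted myoblasts 3 of the 12 were higher (Id3, Id4 and Hey1) and 2 lower (30% of all tested genes). In replicate 3 of the bulk myoblasts, low in differentiated muscle markers as given above, 5 bone and cartilage markers summed to 60.89 CPM. The others had 3.81 and 3.96 CPM. Nearly all of the higher sum was Sp7, at 60.86 CPM and itself 1 of the 12 genes, so it does not speak for the other markers. The part of that library in these counts was not tested.

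**Figure D5:**
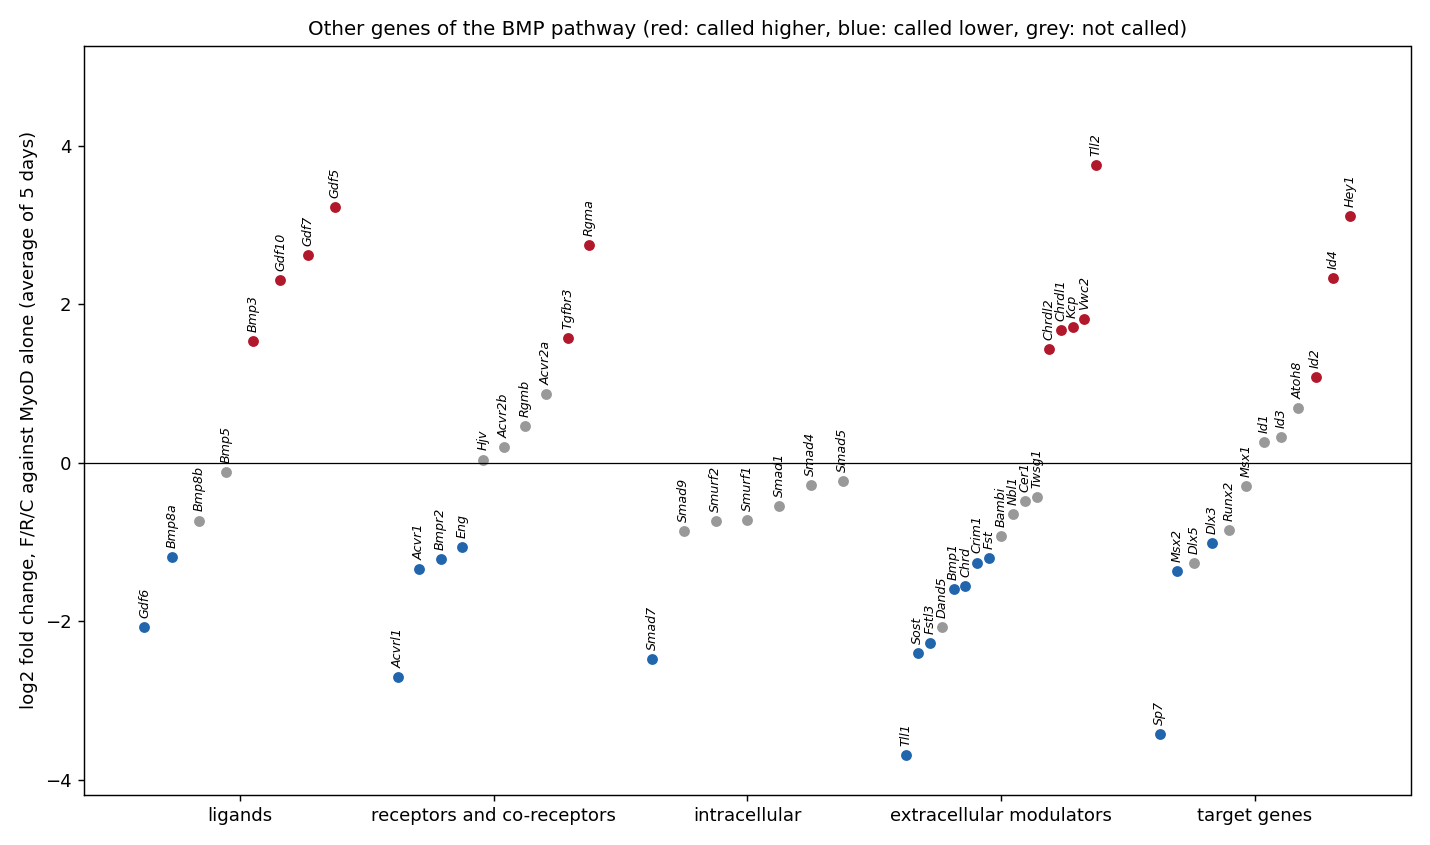
Log2 fold change with F/R/C against MyoD alone, averaged over 5 days, of the 54 tested genes of the BMP pathway that are not among the 10 members, grouped by role; red and blue mark genes called higher and lower and grey genes not called. Receptor genes Acvrl1, Acvr1 and Bmpr2 lie below -1, and Tll1 and Tll2 lie at -3.69 and 3.76.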

How the data were processed

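RNA of 45 mouse libraries was prepared with a stranded poly-A kit and read as 100-base single ends, per the labels' protocols. Per the submitters' processing notes, bcl2fastq 2.19, Trimmomatic 0.36, kallisto 0.44, edgeR 3.28 and the build GRCm38.p6 were used, and the strand and fragment settings are not given in the sources used here. The authors deposited for each library estimated counts per transcript and, per the file headers, TPM, which kallisto scales by effective length to a fixed total per library. Here the estimated counts were summed per gene with GENCODE M21, which matched 121104 of 121843 transcripts holding at least 99.4% of reads, and rounded to whole numbers. TPM values were summed per gene to compare levels between genes.

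All 45 libraries entered 1 model of 15 groups in edgeR 4.0.16 under R 4.3.3 (TMM factors, filterByExpr, quasi-likelihood F test, 30 residual degrees of freedom), and p-values were adjusted over 17325 genes by the Benjamini-Hochberg method. A gene was called at an adjusted p under 0.05 with a log2 fold change of 1 or more in size. In simulated data with 200 genes changed 4-fold in the day 10 comparison of the routes, over 17325 genes, 63.5% were recovered and 4 of 131 calls were false. The floor of 3 reads covers counting error only. Alternatives were DESeq2 1.42.0, RLE factors, no filter, no minimum fold change, TPM, a replicate block, a fit of the compared groups alone and leaving out libraries.

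Same-numbered libraries of the 2 routes deviated together on days 2, 4 and 6 (correlation of deviations 0.223 to 0.375 over genes), so there the numbers were taken to pair the libraries, a pairing that comes from the data and not from a label. The 10 genes, the pathway and marker lists and the tests were chosen with earlier results of these data known. Other pathway genes are named where called in the average over days, up to 4 per direction and list, and Id1 and Id3 were added after their values were seen. An item of the pathway list is not reported here. For each member the gene most like it is the one with the highest correlation of group means.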

Additional observations from a re-analysis of the deposited data

How the results depend on the processing

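The numbers of members called are given under each alternative. In the average over days, 1 member became 2 with RLE factors, with no filter on low counts, with DESeq2 and with only the groups compared, and 4 with no minimum fold change (Bmp7, Bmpr1b, Smad6 and Nog). With only the groups compared, the count was 2 on day 4 against 1, 1 for the change from day 2 to day 10 against 0 (also 1 with DESeq2), 5 for day 2 of the F/R/C route against MEFs in place of 3, 0 for bulk iMPCs against bulk myoblasts in place of 3, 2 for sorted iMPCs against sorted myoblasts in place of 5 (Bmp7 included), and 0 for sorted against bulk myoblasts in place of 1, where DESeq2 gave 2. The cause was not tested. With TPM in place of CPM, the log2 ratio of sorted to bulk iMPC means was -0.01 for Nog, against 0.37, and 0.68 for Bmper, against 0.26.

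With a replicate block in the model, the count of members was 2 on day 8, 5 on day 10, 2 for the change from day 2 to day 10, 5 for day 2 of the F/R/C route against MEFs, and 2 for sorted against bulk myoblasts. In none of these comparisons did the correlation of same-numbered libraries clear the cut-off used in every pair. It ran from 0.0791 to 0.234 on day 8, from 0.0617 to 0.264 on day 10 and from 0.0617 to 0.375 for the change. All of these were positive, so whether the numbers pair those libraries is not settled. It ran from -0.0710 to 0.135 for day 2 of the F/R/C route against MEFs and from -0.237 to 0.0269 for the myoblasts. On days 2, 4 and 6, where the numbers were taken to pair the libraries, the block gave 0, 1 and 1 members, as without it.

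Leaving out 1 library at a time gave 1 to 3 members in the average over days, 1 to 2 on day 8, 2 to 4 on day 10 and 0 to 1 for the change over days. Against MEFs it gave 3 to 4 on day 2 and 3 on day 10 of MyoD alone, 1 to 3 on day 2 and 2 to 5 on day 10 with F/R/C. In the reference groups it gave 1 to 2 for bulk iMPCs against day 10 with F/R/C and 2 to 4 for bulk iMPCs against myoblasts. It gave 2 to 5 for sorted iMPCs against sorted myoblasts and 1 to 2 for sorted against bulk myoblasts. The counts that use iMPC libraries cover all 10 members, Bmp7 included, unlike the counts above that leave it aside. Bmp7 was picked from these libraries, so its calls there are no support for it. In the average over days alone, all libraries of one replicate number were also left out together, an alternative chosen after seeing the data, which gave 1 to 2 members. Bmp7, Bmp6, Bmp4 and Bmp2 had at most 3 reads in 15, 9, 5 and 4 libraries, and differences among such libraries were not detectable at this depth.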

Other observations

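The genes whose group means followed a member most closely are given as a description over 15 groups that share libraries and scaling, with no test. Pearson correlations of log2 CPM were 0.978 for Grem1 with Fam129a, 0.967 for Bmper with Akap12, 0.962 for Bmpr1b with Ggct, 0.962 for Smad6 with Zfp593 and 0.961 for Bmp7 with Nob1. They were 0.954 for Nog with Tnfrsf19, 0.951 for Bmp2 with Icam1, 0.946 for Bmp4 with its antisense neighbour Gm15222, 0.941 for Bmp6 with C1s1 and 0.893 for Bmpr1a with Pfn4. Among the members themselves, Bmp2 and Grem1 had a correlation of 0.912, Bmp4 and Grem1 one of 0.868, and Bmp7 and Grem1 one of -0.747. The 15 groups include the sorted and bulk iMPCs from which Bmp7 was picked. Its mean was 17.7 CPM in sorted iMPCs and at most 1.20 CPM in any other group. The correlations of Bmp7 are therefore not independent of that choice.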
